A study of Mus musculus with 6 samples.

Results

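Solute carriers are the largest family of membrane transporters in mammals, and 139 genes whose symbols start with Slc or Slco and a digit were described here in mouse embryonic fibroblasts that lack cyclophilin D. The members were found by symbol among probes that carry a single gene name, which gave 179 probes and 139 genes from 38 families. Each gene was read through its brightest probe, and these genes are 139 of 7605 named genes with a tested probe. The RefSeq table of mouse assembly GRCm38.p6 holds 389 protein-coding genes with such symbols, of which 138 had a listed probe, and the remaining member is a pseudogene. The others were not analysed here. Of the 139, 134 are carriers by family and 5 are named after one: the scaffolds Slc9a3r1 and Slc9a3r2, the neighbour gene Slc7a6os, the pseudogene Slc2a4rg-ps, and Slc22a17, a lipocalin receptor of the family by sequence.

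The arrays came from 3 CypD knockout and 3 wild-type fibroblast samples, all of C57BL/6 background and derived from E13.5 embryos. CypD is cyclophilin D, a peptidyl-prolyl isomerase of the mitochondrial matrix encoded by Ppif. The samples carry the letters A, B and C within each genotype. The labels do not say whether a letter stands for an embryo, a litter or a dish, so p-values measure the spread between these arrays only, which may be technical. Array medians were 226.5 to 229.2 intensity units in knockout and 223.4 to 251.3 in wild type. Ppif itself had log2 intensities of 12.25, 12.35 and 12.18 in knockout and 13.57, 13.70 and 13.62 in wild type. It was lower but not absent in knockout (log2 fold change -1.37 ± 0.07, SE, adjusted p = 2.96e-09), and the labels do not place its probe inside or outside the deleted part.

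Solute carriers move small molecules across the plasma membrane and the membranes of organelles, either down a gradient or coupled to sodium, protons or another solute. Cells in culture take up glucose through the Slc2 family and amino acids through several families, some of which are exchangers. The Slc25 family lies mostly in the inner mitochondrial membrane, where the adenine nucleotide and phosphate carriers work beside cyclophilin D. Metal ions have importers and exporters of their own, and the Slc35 family supplies nucleotide sugars to the Golgi.

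Values below are background-corrected, quantile-normalized log2 intensities, and fold changes are knockout over wild type with the limma standard error. A gene was called at a Benjamini-Hochberg adjusted p under 0.05 over all 27168 probes tested. Of the 139 genes, 24 rose, 35 fell and 80 did not pass. The called share of 42.4% stood beside 43.6% of all named genes tested. Rises made up 17.3% of members, against 21.8% of named genes, and falls 25.2% of members, against 21.8% of named genes. At least 2-fold changes were called in 12 members, or 8.63%, against 6.07% of named genes. This count depends on the treatment of background: without background correction it was 8, or 5.76%, against 4.33% of named genes, and the authors' processed table gave the same numbers. Slc22a4 (1.95-fold), Slco2a1 (1.93-fold), Slc1a3 (1.99-fold) and Slc35g2 (1.54-fold) were then under 2-fold. The knockout and wild-type arrays did not overlap in 78 members, which is 56.1%, as it was for all named genes (56.1%). The median log2 fold change was -0.03 in the members and 0.01 in the other 7466 named genes, and the median size was 0.24 in either set. Solute carriers as a set thus changed about as often as other named genes, and the differences lay in individual carriers.

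**Figure D1:**
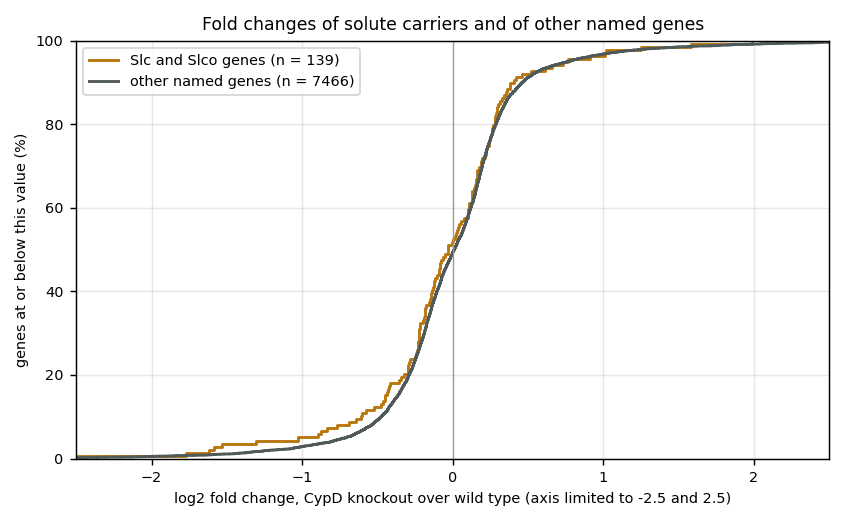
Cumulative share of genes (y axis, percent) at or below each log2 fold change, knockout over wild type (x axis), for 139 Slc and Slco genes and 7466 other named genes. The curves run close together around medians of -0.03 and 0.01, and the value of -4.22 for Slco4a1 lies off the axis.

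Named probes were listed by the authors only where the highest array was at least 1.20 times the lowest, so a share called among named genes is not the share among all carriers of the mouse. Fibroblast markers were present, with 9 of 11 listed genes tested and a summed intensity of 27800 to 32300 in knockout and 36500 to 37600 in wild type. They went both ways: Pdgfra (1.47), Col3a1 (1.13) and Pdgfrb (0.41) rose, S100a4 (-1.62), Dcn (-0.64), Col1a1 (-0.63) and Col1a2 (-0.36) fell, and Fn1 and Vim did not pass. Neural and glial markers had 3 of 10 tested, with a summed intensity of 1760 to 1870 in knockout and 5580 to 6250 in wild type. These 3, Stmn2 (-2.79), Mbp (-0.95) and Nes (-0.94), all fell. The 3 tested of 9 endothelial markers summed to 2280 to 2410 in knockout and 1730 to 1900 in wild type, and the 3 tested of 9 epithelial markers to 1820 to 1940 and 1370 to 1420. Among endothelial markers Flt1 (0.44) and Eng (0.52) rose, and Esam, at -0.38, did not pass. Of the epithelial markers Spint1 rose (0.78), Krt19 fell (-0.35) and Cdh1 did not pass (-0.09). The 2 tested of 10 leukocyte markers summed to 879 to 902 in knockout and 864 to 1070 in wild type, and the 2 tested of 8 skeletal muscle markers to 584 to 635 and 577 to 705. The muscle marker Acta1 fell (-0.79), while Myl4 did not pass (0.16). Of 6 erythroid markers 0 had a tested probe. The part of other cell types in the carriers' differences was not tested, and in cultures fewer cells of a type and less RNA per cell cannot be told apart.

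The amino acid carrier Slc7a11 has a promoter known for paired amino acid response elements, composite sites of C/EBP and ATF factors. Promoter windows of 250 bases before to 50 after the start site were taken from RefSeq (GRCm38.p6) for the 107 members that matched the table. The element was searched as TGATGNAAN on either strand, where matches may overlap other motifs. It was found in 3.95% of all promoter windows, and 3 called members held it: Slc7a11, which fell, Slc1a4, which rose, and Slco2a1, which fell. These 3 windows are shown, chosen after the values were seen, because the same pattern was matched in genes that went different ways. The call of Slc1a4, the only rise of the 3, did not hold under every setting. Capitals mark the matches, whose letters differ between the genes at the free positions.
Slc7a11, chr3:50443564-50443863, minus strand: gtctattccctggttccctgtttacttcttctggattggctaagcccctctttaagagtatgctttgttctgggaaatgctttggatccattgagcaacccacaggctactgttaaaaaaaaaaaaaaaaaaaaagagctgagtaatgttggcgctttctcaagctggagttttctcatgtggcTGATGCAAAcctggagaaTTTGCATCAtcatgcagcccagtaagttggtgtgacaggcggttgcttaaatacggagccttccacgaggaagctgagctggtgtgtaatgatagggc
Slc1a4, chr11:20332664-20332963, minus strand: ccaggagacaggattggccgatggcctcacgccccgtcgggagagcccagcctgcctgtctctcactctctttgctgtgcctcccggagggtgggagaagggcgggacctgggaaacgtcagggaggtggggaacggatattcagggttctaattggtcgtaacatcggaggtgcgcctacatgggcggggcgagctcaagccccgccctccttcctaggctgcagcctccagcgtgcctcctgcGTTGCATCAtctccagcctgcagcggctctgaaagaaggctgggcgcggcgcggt
Slco2a1, chr9:103008237-103008536, plus strand: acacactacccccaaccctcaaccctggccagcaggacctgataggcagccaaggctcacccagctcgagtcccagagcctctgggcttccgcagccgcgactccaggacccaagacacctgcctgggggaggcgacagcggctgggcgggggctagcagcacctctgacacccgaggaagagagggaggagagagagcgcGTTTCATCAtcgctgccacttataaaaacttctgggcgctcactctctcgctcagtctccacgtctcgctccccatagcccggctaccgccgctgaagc
The Slc7a11 window held 2 matches, on opposite strands, starting at -66 and -48 from the start site, and the other windows held 1 each. By gene, 1 of 18 members that rose, 2 of 26 that fell and 2 of 63 that did not pass had the element, against 4.50% of all genes in the table. The antioxidant element core TGACNNNGC, bound by NRF2, was present in 0 of 18, 8 of 26 and 10 of 63, against 14% of all genes. The hypoxia element core ACGTG was found in 8 of 18, 10 of 26 and 21 of 63, against 21.8% of all genes. The NF-kB site, by a consensus on either strand, was found in 12 of 18, 17 of 26 and 50 of 63, against 53.5%. The GC box GGGCGG was found in 14 of 18, 24 of 26 and 49 of 63, against 38.2%. Members are genes with a named and tested probe, whereas the comparison covers all 27025 genes of the promoter table, so the gene sets are unlike. Members that did not pass also exceeded it for the hypoxia core (33.3%), the NF-kB site (79.4%) and the GC box (77.8%). These are letter matches in short windows and were not tested.

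Carriers of organic anions and cations held the largest fall of the set. Among 10 genes tested, 4 fell, 1 rose and 5 were not called. Class counts here and below stand beside 21.8% of named genes called higher and 21.8% lower, and were not tested. All 4 falls were at least 2-fold with background correction, and 2 of them, Slco4a1 and Slc22a23, without it. Slco4a1, an organic anion transporter that also takes up thyroid hormone, had log2 intensities of 6.86, 7.01 and 7.0 in knockout, against 11.15, 11.22 and 11.18 in wild type. All 3 knockout arrays lay far below all 3 wild-type arrays, and limma gave -4.22 ± 0.09 on the log2 scale (adjusted p = 9.74e-13). The deposited intensities were 207.7, 217.4 and 219.8 in knockout, below each array's median, and 2590, 2503 and 2380 in wild type. The 18.7-fold difference became 11-fold without background correction, so its size depends on how background is treated, while the direction did not.

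Slc22a23, an orphan member of the organic ion family, read 7.34, 7.35 and 7.33 in knockout and 9.04, 9.06 and 9.23 in wild type (-1.77 ± 0.10, adjusted p = 9.70e-09). Its 3.41-fold difference was 2.52-fold without background correction. Slc22a4 carries ergothioneine, a dietary antioxidant, and read 6.70, 6.43 and 6.56 in knockout and 7.94, 8.17 and 8.19 in wild type (-1.54 ± 0.12, adjusted p = 3.14e-07). In these 2 genes, too, the groups lay apart. The knockout mean of Slc22a4, 6.56, lay below the filter level of 6.9, so the gene was tested because of its wild-type signal, and its knockout signal is not shown to be above background. Its 2.90-fold difference was 1.95-fold without background correction. Slco2a1, the prostaglandin transporter that clears prostaglandins into cells, had 9.82, 9.68 and 9.74 in knockout against 10.71, 10.76 and 10.84 in wild type (-1.02 ± 0.08, adjusted p = 4.33e-07). Its other probes gave -1.14 and -1.07, so all 3 probes fell alike. Slco3a1, a related organic anion transporter, went the other way, with 10.18, 10.10 and 10.07 in knockout and 9.71, 9.77 and 9.66 in wild type (0.40 ± 0.08, adjusted p = 0.00252). The Slco family thus differed in direction, with Slco4a1 and Slco2a1 lower and Slco3a1 higher in knockout. Slc10a3 and Slc22a7 did not pass, with 0.10 ± 0.10 and 0.16 ± 0.11.

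**Figure D2:**
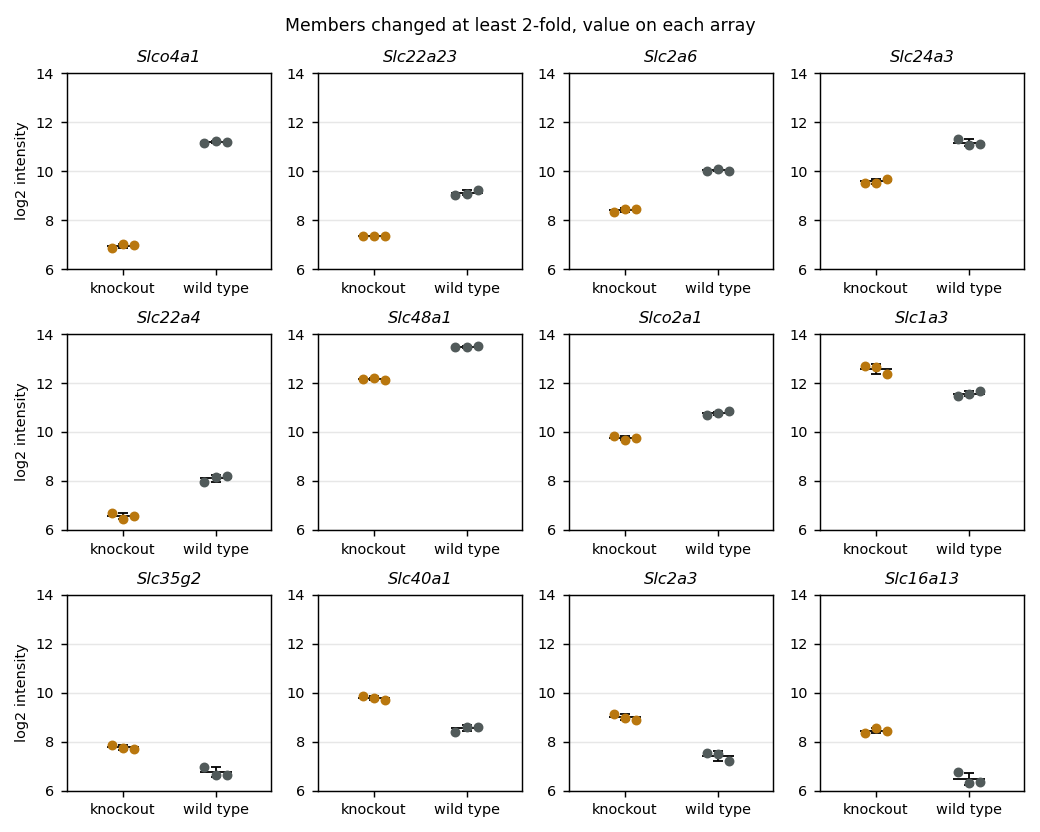
Normalized log2 intensity (y axis) of the 12 members called with at least a 2-fold change, with knockout left and wild type right; points are arrays A, B and C, and bars are the mean and SD of 3 arrays. In each panel the 3 knockout arrays lie wholly below (first 7 genes) or wholly above (last 5) the wild-type arrays.

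Glucose and other sugar carriers changed in opposite directions within 1 family. Among 12 genes tested, placed in this class by family and not by the substrate of each gene, the calls were 3 rises and 3 falls, with 6 not passing. Slc2a3 encodes GLUT3, a glucose transporter of high affinity best known in neurons. It read 9.14, 8.98 and 8.89 in knockout and 7.56, 7.50 and 7.20 in wild type. Every knockout array was above every wild-type array, a 3.0-fold rise (1.58 ± 0.12, adjusted p = 2.34e-07). Its deposited wild-type intensities were low (306.1, 283.1 and 231.7), and the rise was 2.28-fold without background correction. Slc2a6 encodes GLUT6, a hexose transporter of lysosomal membranes, and read 8.31, 8.47 and 8.46 in knockout and 10.01, 10.07 and 10.02 in wild type. It fell, by a measured 3.07-fold, again with no overlap (-1.62 ± 0.09, adjusted p = 9.36e-09). Without background correction this fall was 2.62-fold.

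The widely expressed glucose transporter Slc2a1 (GLUT1) was bright on every array, with 13.55, 13.56 and 13.51 in knockout and 13.81, 13.82 and 13.68 in wild type. Its fall was small (-0.23 ± 0.06, adjusted p = 0.0115), and the call was lost without an intensity trend in the variance (adjusted p = 0.0800). Slc2a10 (GLUT10), whose loss causes arterial tortuosity in humans, read 8.05, 8.25 and 8.18 in knockout and 7.52, 7.37 and 7.62 in wild type (0.66 ± 0.11, adjusted p = 0.000464). Its other probe gave 0.35 and passed too. Slc45a4 fell by 0.42 ± 0.08 (adjusted p = 0.00114), with a second probe at -0.27 that did not pass. Slc2a8, a carrier of intracellular membranes, had a log2 fold change of 0.12 ± 0.12 and Slc37a4, which brings glucose 6-phosphate into the endoplasmic reticulum, of -0.22 ± 0.10, and neither passed.

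Both tested members of the Slc16 family of monocarboxylate carriers rose. Slc16a13 read 8.36, 8.56 and 8.46 in knockout and 6.76, 6.32 and 6.34 in wild type (1.99 ± 0.13, adjusted p = 6.46e-08). The measured 3.97-fold became 2.43-fold without background correction. The wild-type mean of 6.47 lay below the filter level of 6.9, so the gene was tested because of its knockout signal, and the wild-type signal is not shown to be above background. Slc16a6, known in zebrafish for the export of ketone bodies from liver, rose by 0.38 ± 0.11 (adjusted p = 0.0223). The lactate carrier genes Slc16a1 and Slc16a3 were not among the named probes.

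Amino acid carriers held 15 genes with a tested probe: 5 were called higher, 2 lower, and 8 were not called. Slc7a11 encodes xCT, the light chain of the exchanger that imports cystine for glutathione synthesis in return for glutamate. It read 8.31, 8.31 and 8.23 in knockout and 9.10, 9.10 and 9.27 in wild type. The groups lay apart, with a 1.83-fold fall (-0.87 ± 0.09, adjusted p = 9.46e-06). A dimmer second probe gave -0.24 and did not pass (adjusted p = 0.160). Slc3a2, the heavy chain that xCT needs at the surface, read 9.37, 9.32 and 9.69 in knockout and 9.09, 9.06 and 9.35 in wild type, and did not pass (0.29 ± 0.11, adjusted p = 0.0955). It passed without wild type C (0.38, adjusted p = 0.0196) and with the replicate letter as a block (adjusted p = 0.0375).

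Slc1a3 encodes GLAST, a sodium-coupled glutamate importer known from astroglia, and read 12.70, 12.67 and 12.36 in knockout against 11.48, 11.56 and 11.66 in wild type. It rose 2.02-fold (1.01 ± 0.09, adjusted p = 1.74e-06). Slc7a2, a carrier of arginine and lysine, read 8.11, 8.02 and 8.27 in knockout and 7.53, 7.15 and 6.98 in wild type (0.91 ± 0.14, adjusted p = 0.000231). Knockout arrays were thus higher for a glutamate importer and an arginine importer and lower for the cystine and glutamate exchanger. The other called members were Slc1a4 (ASCT1, neutral amino acids), Slc38a7 and Slc38a9 (lysosomal carriers), which rose, and Slc38a2 (SNAT2), which fell, all by at most 1.28-fold.

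Among Slc6 and vesicular carriers, 3 of 8 rose, 4 fell and 1 did not pass. The falls were all of the Slc6 family, sodium and chloride coupled carriers of the cell surface or vesicles. Slc6a9, the glycine transporter GLYT1, read 10.91, 11 and 10.83 in knockout and 11.96, 11.73 and 11.75 in wild type (-0.90 ± 0.08, adjusted p = 2.23e-06). Slc6a17, which loads neutral amino acids into synaptic vesicles, fell by 0.58 ± 0.10 (adjusted p = 0.000638), with a dim second probe at -0.32 that did not pass. Slc6a6, the taurine transporter, read 14.02, 13.87 and 13.90 in knockout and 14.18, 14.23 and 14.27 in wild type (-0.30 ± 0.06, adjusted p = 0.00191). Its second probe fell by 0.65, and both passed. Slc6a8, the creatine transporter, fell by 0.29 ± 0.07 (adjusted p = 0.00633).

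The 3 vesicular carriers that rose were small to moderate changes. Slc17a6 encodes VGLUT2, which fills vesicles with glutamate in neurons, and read 8.23, 8.31 and 8.20 in knockout and 7.54, 7.43 and 7.49 in wild type. It rose 1.70-fold (0.76 ± 0.10, adjusted p = 5.04e-05), and its second probe gave 0.68 and passed. Slc17a5 (sialin), which exports sialic acid from lysosomes, and Slc18b1, a vesicular polyamine carrier, rose by 0.42 ± 0.10 (adjusted p = 0.0102) and 0.38 ± 0.09 (adjusted p = 0.00705).

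Metal carriers held 15 genes with a tested probe: 3 were called higher, 5 lower, and 7 were not called. Slc40a1 encodes ferroportin, the iron exporter of mammalian cells. It read 9.89, 9.81 and 9.72 in knockout and 8.42, 8.62 and 8.62 in wild type. Knockout arrays were all higher, by 2.38-fold (1.25 ± 0.09, adjusted p = 3.11e-07). Slc11a2 (DMT1), which imports iron through the surface and from endosomes, read 11.03, 10.97 and 11.10 in knockout and 11.56, 11.50 and 11.42 in wild type (-0.46 ± 0.07, adjusted p = 0.000404). Its other probes gave -0.32, which passed, and -0.24, which did not.

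Carriers of heme and iron are found in other families too. Slc48a1 (HRG1), which moves heme out of endosomes and lysosomes, read 12.17, 12.20 and 12.14 in knockout against 13.46, 13.46 and 13.51 in wild type. It fell 2.47-fold with narrow spread (-1.30 ± 0.06, adjusted p = 1.40e-09) and was bright in both groups. Slc25a37, the mitochondrial iron importer mitoferrin, read 10.37, 10.54 and 10.32 in knockout and 10.81, 10.83 and 10.93 in wild type (-0.45 ± 0.08, adjusted p = 0.0014). Its second probe fell by 1.01. Slc25a28, the other mitoferrin, did not pass, with 0.11 ± 0.07. In knockout arrays Slc40a1 was thus higher, Slc11a2, Slc48a1 and Slc25a37 were lower, and Slc25a28 was not called.

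Slc39a13 (ZIP13), a zinc carrier of the secretory pathway that connective tissue needs, read 11.05, 11.08 and 11.03 in knockout and 11.66, 11.66 and 11.78 in wild type (-0.64 ± 0.07, adjusted p = 1.23e-05). Its second probe fell by 0.53. The zinc importer Slc39a6 (ZIP6) read 13.29, 13.27 and 13.15 in knockout and 13.70, 13.73 and 13.59 in wild type (-0.44 ± 0.06, adjusted p = 0.000175). Slc30a6 and Slc30a7, zinc carriers of the Golgi, went opposite ways, with 0.32 ± 0.07 (adjusted p = 0.00447) and -0.28 ± 0.08 (adjusted p = 0.0284). The surface zinc exporter Slc30a1 lay lower in every knockout array but did not pass (-0.25 ± 0.09, adjusted p = 0.0573), and is named after its value was seen. It passed without knockout A (-0.31, adjusted p = 0.0459) or wild type C (-0.29, adjusted p = 0.0322) and under 4 other settings (adjusted p down to 0.0368). Slc31a2, a copper carrier of endosomes, fell by 0.48 ± 0.11 (adjusted p = 0.00495), while the surface copper importer Slc31a1 had -0.18 ± 0.07 (adjusted p = 0.106). Slc31a1 passed without wild type A (-0.24, adjusted p = 0.0490) and with median scaling (adjusted p = 0.0372). Slc41a3, of a magnesium carrier family, rose by 0.46 ± 0.10, and its second probe passed at 0.39. Slc11a1, known from macrophages, had -0.15 ± 0.08 by its brightest probe, whereas a dim second probe passed at -0.79.

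**Figure D3:**
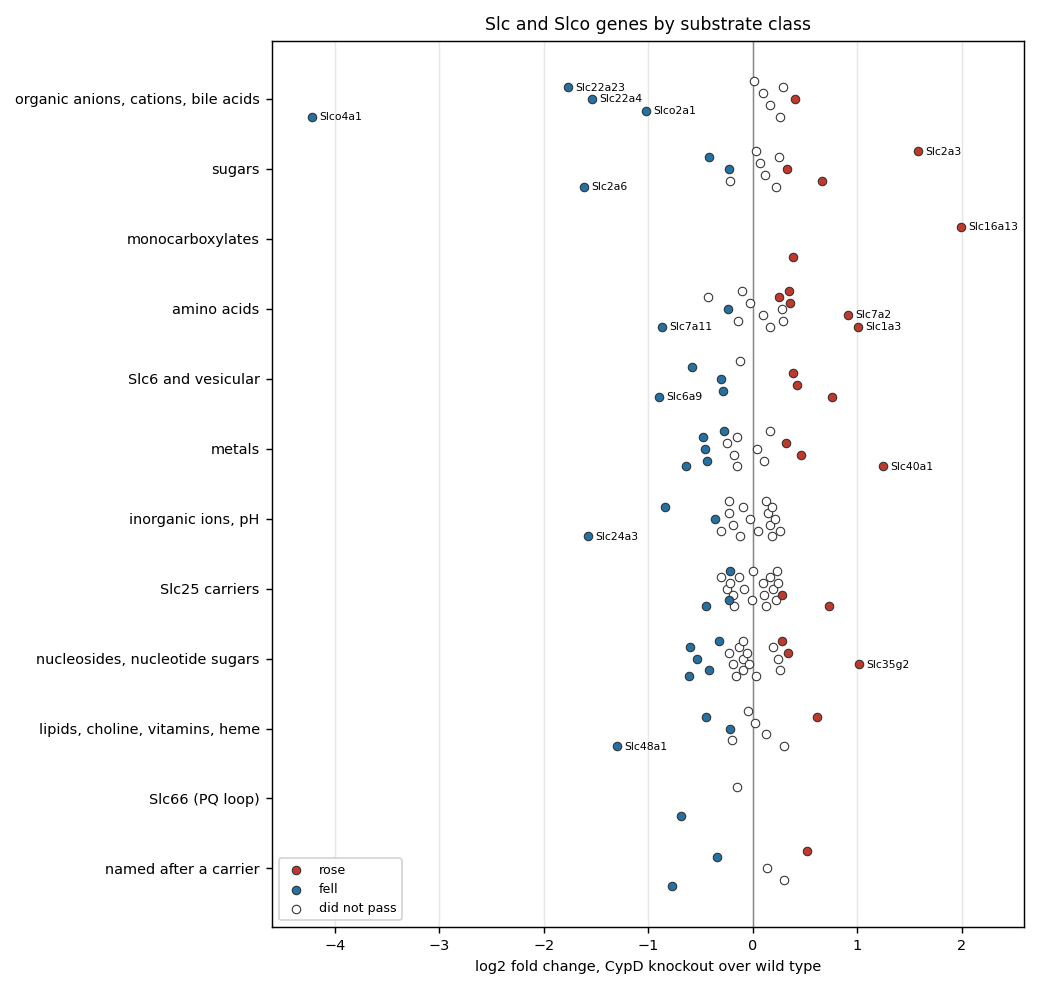
Log2 fold change, knockout over wild type (x axis), of the 139 genes, 1 point each, by substrate class (y axis; vertical scatter within a class has no meaning); red rose, blue fell and white did not pass. Organic ion carriers hold 4 of the 7 falls of at least 2-fold, of which 2 stay at 2-fold without background correction, and Slc25 carriers lie between -0.45 and 0.73.

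Inorganic ion and pH carriers had 18 genes with a tested probe: 0 were called higher, 3 lower, and 15 were not called. Many were dim: 12 of the 18 lay below the 70th percentile of intensity, against 49 of all 139 members. Slc24a3 (NCKX3), which exchanges sodium for calcium and potassium, read 9.53, 9.52 and 9.69 in knockout and 11.33, 11.07 and 11.09 in wild type. It was 2.99-fold lower with no overlap (-1.58 ± 0.09, adjusted p = 2.01e-08). Slc9a7 (NHE7), a proton exchanger of the trans-Golgi network, read 6.93, 6.70 and 7.09 in knockout and 7.70, 7.70 and 7.84 in wild type (-0.84 ± 0.12, adjusted p = 0.000147). The deposited knockout intensities of Slc9a7, 213.3, 193.4 and 227.7, lay below each array's median. Its 1.79-fold difference was 1.44-fold without background correction. The sodium bicarbonate carrier Slc4a4 fell by 0.36 ± 0.11 (adjusted p = 0.0331). Slc12a2 (NKCC1), a sodium, potassium and chloride importer, had -0.19 ± 0.07 and did not pass (adjusted p = 0.0600). It passed without wild type C (-0.21, adjusted p = 0.0388), with median scaling (adjusted p = 0.0138), above the 70th percentile of intensity (adjusted p = 0.0460) and with the replicate block (adjusted p = 0.0465). Slc8b1, the sodium and calcium exchanger of the inner mitochondrial membrane, had 10.20, 10.36 and 10.31 in knockout and 10.50, 10.58 and 10.49 in wild type. It did not pass (-0.23 ± 0.08, adjusted p = 0.0611), but passed with median scaling (adjusted p = 0.0365), above the 70th percentile (adjusted p = 0.0368) and as a mean over gene probes (adjusted p = 0.0486).

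Most members of the Slc25 family are carriers of the inner mitochondrial membrane. Of 22 genes tested, 2 were called higher, 3 lower and 17 were not called, where 43.6% of named genes were called. The median size of the log2 fold change was 0.20, against 0.24 over all named genes, and the difference was not tested. By the brightest probe 0 of them changed at least 2-fold. Slc25a17, an exception in the family because it carries cofactors into peroxisomes, read 13.07, 13.13 and 13.10 in knockout and 12.37, 12.38 and 12.36 in wild type. Its arrays agreed closely within each group and lay apart between them (0.73 ± 0.06, adjusted p = 5.24e-07). Slc25a24, which exchanges ATP-magnesium for phosphate, read 11.78, 11.85 and 11.82 in knockout and 11.50, 11.59 and 11.52 in wild type (0.28 ± 0.07, adjusted p = 0.0091).

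Slc25a4, the adenine nucleotide carrier ANT1, was named after its value was seen, because it works beside cyclophilin D in textbook accounts of the permeability transition. It read 8.55, 8.46 and 8.56 in knockout and 8.20, 8.37 and 8.31 in wild type, and did not pass (0.23 ± 0.09, adjusted p = 0.115). The phosphate carrier Slc25a3 and the other adenine nucleotide carrier Slc25a5 were not among the named probes. Slc25a16 and Slc25a1, the citrate carrier, did not pass, with 0.16 ± 0.07 and -0.01 ± 0.09. The remaining calls, Slc25a33 (pyrimidine nucleotides) and Slc25a20 (acylcarnitines), were falls of 1.17-fold each.

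Carriers of nucleosides, nucleotide sugars and acetyl-CoA held 21 genes with a tested probe: 3 were called higher, 5 lower, and 13 were not called. Slc29a1 (ENT1), the equilibrative nucleoside transporter, read 12.03, 12.14 and 12.08 in knockout and 12.53, 12.59 and 12.70 in wild type (-0.53 ± 0.07, adjusted p = 6.60e-05). A second, dim probe gave -0.26 and did not pass (adjusted p = 0.384). Slc35a2, which carries UDP-galactose into the Golgi, read 9.45, 9.46 and 9.61 in knockout and 10.11, 10.02 and 10.21 in wild type (-0.60 ± 0.09, adjusted p = 0.000195). Slc35a5 and Slc35a4 fell by 0.61 ± 0.11 (adjusted p = 0.00147) and 0.42 ± 0.07 (adjusted p = 0.000929). Slc35b3, which supplies the sulfate donor PAPS to the Golgi, fell by 0.32 ± 0.07 (adjusted p = 0.00436). A further 2 probes of the gene passed at -0.45 each. Slc35g2 read 7.89, 7.74 and 7.69 in knockout and 6.98, 6.63 and 6.66 in wild type (1.02 ± 0.12, adjusted p = 2.79e-05). Its wild-type mean of 6.76 also lay below the filter level, and the fold was 1.54 without background correction. Slc35b2, the other PAPS carrier, had -0.09 ± 0.07 and Slc35b4 0.19 ± 0.07, and neither passed, though Slc35b4 passed without wild type C (0.25, adjusted p = 0.0257).

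Carriers of lipids, choline, vitamins and heme had 9 genes with a tested probe: 1 were called higher, 3 lower, and 5 were not called, Slc48a1 being the largest fall. Slc27a3, of the fatty acid transport and acyl-CoA synthetase family, read 10.41, 10.54 and 10.54 in knockout and 9.93, 9.96 and 9.78 in wild type (0.61 ± 0.08, adjusted p = 0.000112). Slc23a2 (SVCT2), the vitamin C transporter, read 9.23, 9.35 and 9.28 in knockout and 9.68, 9.82 and 9.71 in wild type (-0.45 ± 0.08, adjusted p = 0.00154), with a dim second probe at -0.30 that did not pass. Slc19a1, the reduced folate carrier, fell by 0.22 ± 0.06 (adjusted p = 0.0264). The fatty acid carrier Slc27a4 had a log2 fold change of 0.02 ± 0.11. Of the 2 PQ-loop genes of the Slc66 family, Slc66a2 read 11.05, 11.15 and 11.02 in knockout and 11.79, 11.75 and 11.76 in wild type (-0.69 ± 0.07, adjusted p = 6.03e-06). The other, Slc66a1, a lysosomal exporter of cationic amino acids, had -0.15 ± 0.09 and did not pass.

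The genes named after a carrier included 2 PDZ scaffolds that tie membrane proteins to the cytoskeleton. Slc9a3r1 (NHERF1) read 10.48, 10.62 and 10.40 in knockout and 11.21, 11.20 and 11.41 in wild type (-0.77 ± 0.09, adjusted p = 1.66e-05). Slc9a3r2 fell by 0.34 ± 0.10 (adjusted p = 0.0260). Slc22a17 rose by 0.52 ± 0.11 (adjusted p = 0.00375), while its second probe gave 0.06 and did not pass. Slc7a6os had 0.14 ± 0.08 and did not pass.

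**Figure D4:**
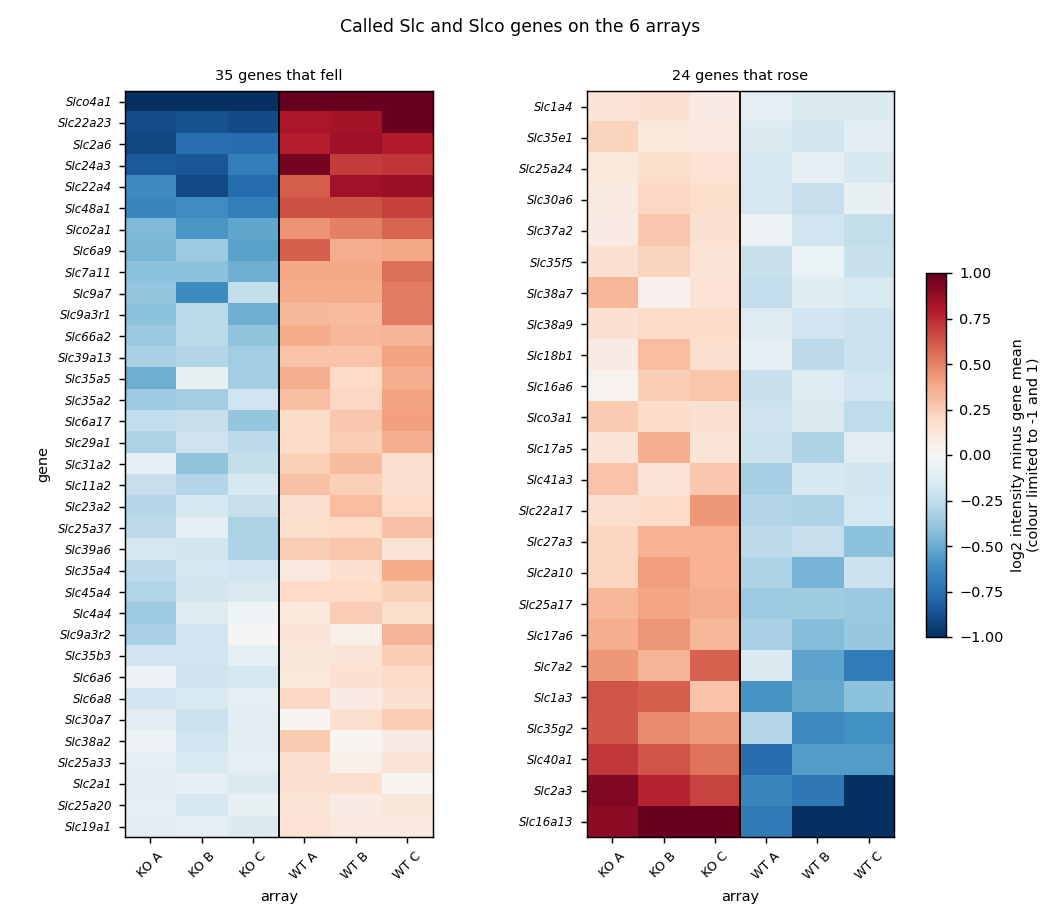
Log2 intensity minus the gene's mean over 6 arrays (colour, limited to -1 and 1) for the 35 called genes that fell and the 24 that rose (rows, ordered by fold change) on each array (columns, knockout left, wild type right of the line). In every row the knockout arrays lie on one side of the wild-type arrays, and the palest rows are changes of about 1.2-fold.

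Of the 59 calls, 41 stayed on the same side of the threshold and in the same direction under every one of the 15 alternative settings that tested them, and these include the 12 members changed at least 2-fold, Slc7a11 and Slc6a9. The other 18 lost the call under at least 1 setting. Slc22a17 and Slc29a1 did so only with another probe or a mean of probes, and Slc2a1 only without the intensity trend. Slc35e1 lost it without knockout A (0.24, adjusted p = 0.0650) and Slc17a5 without knockout B (0.34, adjusted p = 0.0631). Slc38a9 lost it without knockout B or C (adjusted p = 0.0545 and 0.0594). Slc16a6 lost it without knockout B, knockout C or wild type A (adjusted p = 0.0872, 0.0977 and 0.0746). Slc38a2 lost it without knockout B, knockout C or wild type A (adjusted p = 0.111, 0.0607 and 0.107), and its second probe gave 0.04. Slc4a4 lost it without knockout A or B or wild type A or B (adjusted p = 0.149, 0.0647, 0.0543 and 0.105). Slc38a7 lost it without knockout A or C or wild type A or B (adjusted p = 0.146, 0.0775, 0.109 and 0.0514).

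A further 8 small calls were lost when most or several single arrays were left out. Slc37a2, which had risen by 0.33 ± 0.10, lost the call without knockout B or C or wild type B or C (adjusted p = 0.151, 0.0945, 0.0973 and 0.0753). Slc9a3r2 lost it without knockout A or B or wild type A or C (adjusted p = 0.119, 0.0920, 0.0540 and 0.0658). Slc1a4 lost it without any one array other than wild type C, and Slc19a1 likewise, with adjusted p up to 0.0967 and 0.0903. Slc35f5 lost it without any one array other than wild type B (adjusted p up to 0.0953), and Slc30a7 without any one other than wild type A (adjusted p up to 0.114). Slc25a20 lost it without any one array other than wild type C (adjusted p up to 0.143), and Slc25a33 without any one other than wild type B (adjusted p up to 0.144). With the replicate letter as a block, Slc25a20, Slc25a33 and Slc37a2 lost the call as well (adjusted p = 0.0526, 0.0596 and 0.0567), as they did with no filter on dim probes (adjusted p = 0.0592, 0.0697 and 0.0568). Without the intensity trend the other losses were Slc19a1, Slc1a4, Slc25a20, Slc25a33, Slc30a7, Slc38a2 and Slc9a3r2, with adjusted p from 0.0505 to 0.106, and Slc1a4 lost its call with median scaling (adjusted p = 0.0616). These 8 genes had changes of at most 1.27-fold.

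Genes that work with the carriers were set beside them from lists, which were chosen with earlier results of these data known. Over all named genes 21.8% were called higher and 21.8% lower, or 43.6% in either direction. In the cystine and glutathione list, 0 of 10 genes were called higher, 5 lower, and 5 were not called, with a median log2 fold change of -0.26, against 0.01 over all named genes. Gclm, the modifier subunit of the enzyme that starts glutathione synthesis, read 11.87, 12.01 and 12.03 in knockout and 12.38, 12.36 and 12.42 in wild type (-0.42 ± 0.07, adjusted p = 0.000478). The lipid peroxide reductase Gpx4 and the quinone reductase Nqo1 fell by 0.28 ± 0.07 and 0.45 ± 0.11, and both calls were lost under a setting (no intensity trend, adjusted p = 0.0533, and without knockout B, -0.39, adjusted p = 0.0563). Hmox1, the enzyme that breaks down heme, was named after its values were seen because its arrays overlapped. It read 8.88, 8.73 and 7.55 in knockout and 10.73, 10.94 and 8.30 in wild type, so array C was the lowest in either genotype (-1.60 ± 0.53, adjusted p = 0.0466). Without knockout A, B or C its adjusted p was 0.0518, 0.0872 and 0.204, and without wild type A or B it was 0.199 and 0.190, with a log2 fold change as small as -1.13. Without wild type C the log2 fold change was -2.44. The call was also lost without the intensity trend (adjusted p = 0.113) and above the 70th percentile of intensity (adjusted p = 0.0617). Ggt7, of the gamma-glutamyltransferase family, lost its call (-0.40) without knockout A or C or wild type A or B (adjusted p = 0.118, 0.0815, 0.0665 and 0.112). Of the 5 falls in this list, Gclm alone kept its call under every alternative setting run. Txnrd1, thioredoxin reductase, had 0.13 ± 0.09.

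In the amino acid response list, 2 of 11 genes were called higher, 6 lower, and 3 were not called (median -0.33). Atf4, the transcription factor that binds such elements, read 11.46, 11.10 and 11.53 in knockout and 10.24, 10.42 and 10.14 in wild type (1.10 ± 0.11, adjusted p = 6.11e-06). Higher Atf4 mRNA in knockout stood beside lower Slc7a11, whose window is shown above. Ddit4, an inhibitor of mTORC1, fell by 1.0 ± 0.10 and Vldlr, a lipoprotein receptor, fell by 0.83 ± 0.08. Atf5, a related factor, fell by 0.60 ± 0.10. Asns, asparagine synthetase, had -0.17 ± 0.07 and did not pass, but passed with median scaling (adjusted p = 0.0156), the replicate block (adjusted p = 0.0414) and without knockout A (-0.23, adjusted p = 0.0354).

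Glycolysis genes had 2 of 13 rise, 3 fall and 8 not pass (median -0.09). Eno3, an enolase of muscle, fell 2.30-fold (-1.20 ± 0.09, adjusted p = 2.95e-07), Pkm, pyruvate kinase, by 0.36 ± 0.07, and Aldoc by 0.49 ± 0.10. Tpi1 rose by 0.19 ± 0.05, a call lost with median scaling, without the intensity trend and with the mean of probes. Eno2, an enolase that went opposite to Eno3, rose by 0.30 ± 0.10 (adjusted p = 0.0412) with overlapping arrays. Eno2 is named after its value was seen. The aldolase Aldoa had -0.04 ± 0.08. In the list of transporter partners, 4 of 11 rose, 4 fell and 3 did not pass (median 0.06). Txnip, an arrestin-like protein that draws glucose transporters off the cell surface, read 10.33, 10.53 and 10.40 in knockout and 9.31, 9.29 and 9.60 in wild type (1.02 ± 0.10, adjusted p = 4.27e-06). Its relative Arrdc4 rose by 0.83 ± 0.09. The ubiquitin ligase Nedd4l, which removes sodium carriers from the membrane, fell by 0.52 ± 0.09, and the kinase Oxsr1, which regulates chloride carriers, by 0.37 ± 0.07.

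In the metal handling list, 2 of 12 rose, 4 fell and 6 did not pass (median -0.14). The transferrin receptor Tfrc, the main route of iron into cells, read 13.53, 13.64 and 13.66 in knockout and 14.06, 13.91 and 13.89 in wild type (-0.34 ± 0.06, adjusted p = 0.00127). The endosomal iron reductase Steap3 fell by 0.55 ± 0.11, while Steap2 rose by 0.52 ± 0.07 and the metallothionein Mt1 by 0.46 ± 0.06. The metallothionein Mt2 went the other way (-0.43 ± 0.10, adjusted p = 0.00566) and is named after its value was seen. ABC transporters, pumps driven by ATP and a separate family, had 2 of 15 rise, 5 fall and 8 not pass (median -0.16). The called ABC genes of lowest p, named here, were all falls. The drug pump Abcb1b fell by 0.89 ± 0.08 (adjusted p = 1.47e-06), Abca5 by 0.54 ± 0.09, Abcc5 by 0.53 ± 0.10 and Abcc4, which exports prostaglandins and cyclic nucleotides, by 0.39 ± 0.07.

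**Figure D5:**
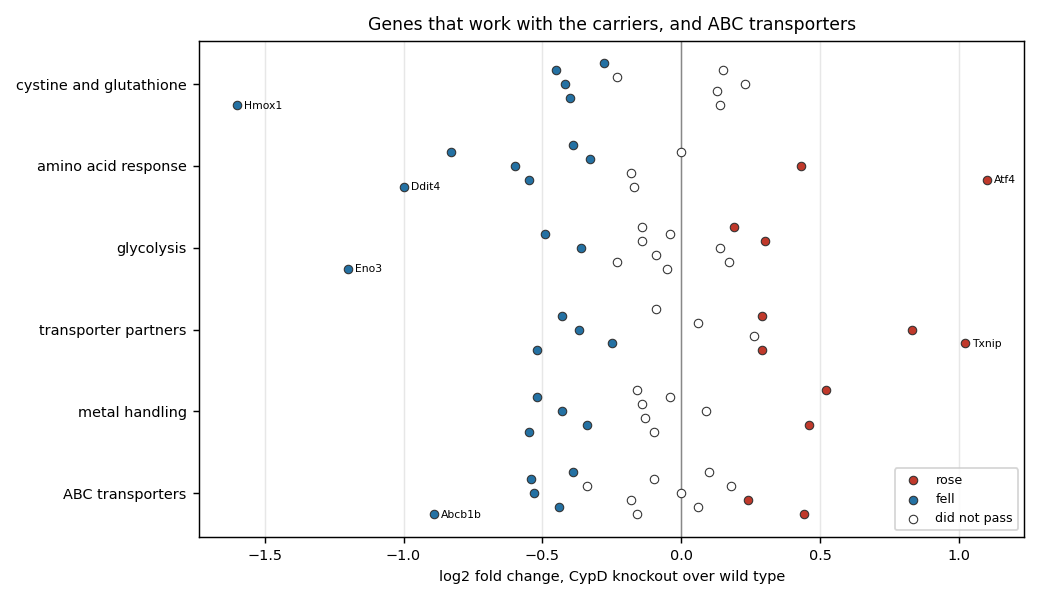
Log2 fold change, knockout over wild type (x axis), of tested members of 5 lists of partner genes and of ABC transporters (y axis; vertical scatter has no meaning); red rose, blue fell and white did not pass. In the cystine and glutathione list 0 of 10 genes rose and 5 fell, where 43.6% of all named genes were called in either direction. Of these falls Gclm alone kept its call under every alternative setting run. Atf4 and Txnip stand at the right with 1.10 and 1.02.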

How the data were processed

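RNA of 6 fibroblast samples was hybridised to Illumina bead arrays of 45281 probes. The authors deposited linear intensities, 1 table per array and 1 processed table of 12534 probes. BeadStudio 3.0 is named in the submitters' processing notes, and its settings were not stated in the labels. Neither detection p-values nor slides are given, so background and slide could not be examined. Intensities were background-corrected (normexp, offset 50), then log2-transformed and brought to common quantiles with limma 3.58.1 (R 4.3.3). The 27168 probes above the 40th percentile of mean intensity were tested (lmFit, eBayes with trend, two-sided). No set test was run. The fit was tested on simulated data. The number of arrays limits the precision.

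Of the 10658 annotated probes, 10653 had 1 symbol. A gene was its brightest tested probe; of 34 members with several, some probes passed and others did not in 10. Members, roles and partner lists were chosen with earlier results of these data known. By rule, values per array were given for called members changed at least 2-fold and for up to 2 further called members of lowest p per class. Other called members and up to 3 bright members per class that did not pass could be named. So could up to 4 called and 2 uncalled genes per partner list. Slc25a4, Slc30a1, Slc2a8, Hmox1, Mt2 and Eno2 fall outside this rule for names. The values per array of Slc2a1, Slc6a6, Slc11a2, Slc25a24, Slc3a2 and Slc8b1 also fall outside the rule for values. Alternatives covered background correction, normalization, filter, trend, the processed table, probe choice, each array left out and a replicate block.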

Additional observations from a re-analysis of the deposited data

How the results depend on the processing

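The count of 59 called genes was 46 to 64 when 1 array was left out, with 18 to 28 rises and 28 to 36 falls, and 51 to 62 under the other settings that tested all 139 genes. Above the 70th percentile of intensity, where 90 members were tested, 47 were called, with 12 rises and 35 falls; fewer dim genes were tested there. The partner lists gave 39 of 72 genes called, and 31 to 43 over the alternatives, where 43.6% of all named genes were called. Members called with at least 2-fold numbered 12, and 10 to 12 when 1 array was left out, 8 without background correction and 8 in the authors' processed table. With the replicate letter as a block, 58 members were called (24 rose, 34 fell), 56 of them shared with the fit without it. Same-letter arrays of the 2 genotypes had deviations correlated at 0.101, -0.0899 and 0.0753, not all above the 0.1 asked of pairs, so the letters were not treated as pairs; what they stand for is unknown. Of 1315 alternative values for 89 named members, 1207 kept direction and side of the threshold, 75 lost a call, 22 gained one and 11 changed sign. The sign changed for Slc25a20 and Slc35b4 with the probe of highest variance (0.20 and -0.13) and for Slc37a3 with the mean of probes (-0.003). It also changed for Txn1, a partner gene, with either (-0.43 and -0.19). The Txn1 value of -0.43 was called (limma adjusted p = 0.0128), and the others of these were not. When 1 array was left out, the values ranged from -0.11 to 0.11 for Slc22a15, -0.09 to 0.10 for Slc25a1 and -0.07 to 0.10 for Slc27a4. For partner genes they ranged from -0.02 to 0.12 for Abcf3, -0.11 to 0.03 for Aldoa, -0.04 to 0.15 for Atp1b1, -0.10 to 0.11 for Eif4ebp1 and -0.26 to 0.03 for Wnk1. Of these values with 1 array left out 0 were called. The cause was not tested. Without detection p-values, dim signals are not separated from background.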
